A study of Mus musculus with 18 samples.

Results

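Scavenger and apoptotic-cell receptors were represented by 9 genes, Msr1, Marco, Cd163, Stab1, Scarb1, Colec12, Axl, Mertk and Timd4, chosen by symbol. The array carried 13 probes with these gene names, out of 41174 probes naming 21632 genes. All 9 genes passed the filter on dim probes, which left 15707 genes, and 8 of them were well above background on all 18 arrays. Timd4 was well above background on 4 of 18 arrays and passed through 1 group only, the Irf4-/- cells after 18 h of IL-4.

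Bone marrow cells of Irf4-/- mice and their Irf4+/- littermates, C57BL6/J animals of 8 to 12 weeks, were grown into macrophages in human rCSF1 at 200 ng/ml. Day 7 brought either IL-4 (10 ng/ml, for 4 h or 18 h) or 18 h of culture without IL-4, called mock. Each of the 6 groups, Irf4+/- mock, Irf4+/- IL-4 4 h, Irf4+/- IL-4 18 h and the same 3 conditions in Irf4-/- cells, was measured on 3 one-colour Agilent arrays, 1 for each of the 3 experiments named A, B and C. The rCSF1 was common to all groups, the control genotype still carried 1 Irf4 allele, cells of several animals (2 males and 1 female) were pooled, and the 4 h response was read against an 18 h mock. The labels name 3 independent experiments but do not say that the 3 conditions of a genotype came from separate cells, so p-values measure the spread between these samples.

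Scavenger receptors take up modified lipoproteins, bacteria and cell debris. Apoptotic-cell receptors recognise phosphatidylserine on dying cells, either directly, as Tim-4 (Timd4) and stabilin-1 (Stab1) do, or through bridging proteins, as the receptor tyrosine kinases Axl and Mertk do through Gas6 and protein S. IL-4, acting through STAT6, is known to change the set of endocytic receptors that macrophages carry, and Irf4 encodes a transcription factor that IL-4 induces in these cells.

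The 75th percentile of the signal lay between 719 and 1961 intensity units across arrays, and 63.4% to 74.4% of the spots were well above background. Levels are given as log2 of the signal minus the array's 75th percentile, so levels can be set against each other for the same probe and not between probes. The single Irf4 probe was no lower in Irf4-/- than in Irf4+/- mock cells (-0.77 ± 0.22 against -1.11 ± 0.72, mean ± SD, n = 3), and its position with respect to the deletion is not known here, so it does not check the genotype labels. The IL-4 treatment was read from Arg1 and Retnla, which rose in all 4 comparisons with mock, Arg1 by at least 8.31 to 10.96 and Retnla by at least 9.21 to 13.93 on the log2 scale. These are lower bounds, since Arg1 was well above background on 1 of the 6 mock arrays and Retnla on 0 of 6, and each mock array entered at its own level or at its lowest signal well above background, whichever was higher. All 8 macrophage markers, Csf1r, Adgre1, Cd68 and Spi1 among them, were well above background on all 18 arrays. Their summed level lay between 8.92 and 10.03 (log2), with the lowest values, 8.92 to 9.09, in the Irf4-/- arrays of experiment A.

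Without a term for the experiment, none of the 9 genes was called at an adjusted p under 0.05 in any of 11 contrasts. In the same fit, 4.21% of all genes were called after 4 h and 4.07% after 18 h of IL-4 in Irf4+/- cells, and 3.81% and 3.53% in Irf4-/- cells. Samples that shared an experiment letter deviated together. With the experiment as a block, 5 genes were called lower at 4 h and 4 at 18 h in Irf4+/- cells, and 6 and 4 in Irf4-/- cells. Over all genes that block gave 18%, 15.3%, 18% and 18.3% of calls in either direction, and 8.13%, 7.61%, 7.99% and 6.64% of calls downward, in the same order. None of the 9 was called higher in these fits. Over all genes tested, the median change was between -0.02 and 0.12 in these 4 comparisons, and over the 8 receptor genes well above background on all arrays it was -0.56, -0.85, -0.57 and -0.61. With Timd4, which was near the detection limit, it was -0.54, -0.55, -0.68 and -0.32. A log2 change is the same with and without the block, because each group holds 1 array of each experiment, and standard errors below are those with the block unless stated. In a bulk sample, fewer cells carrying a receptor and less of its RNA per cell cannot be told apart.

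**Figure D1:**
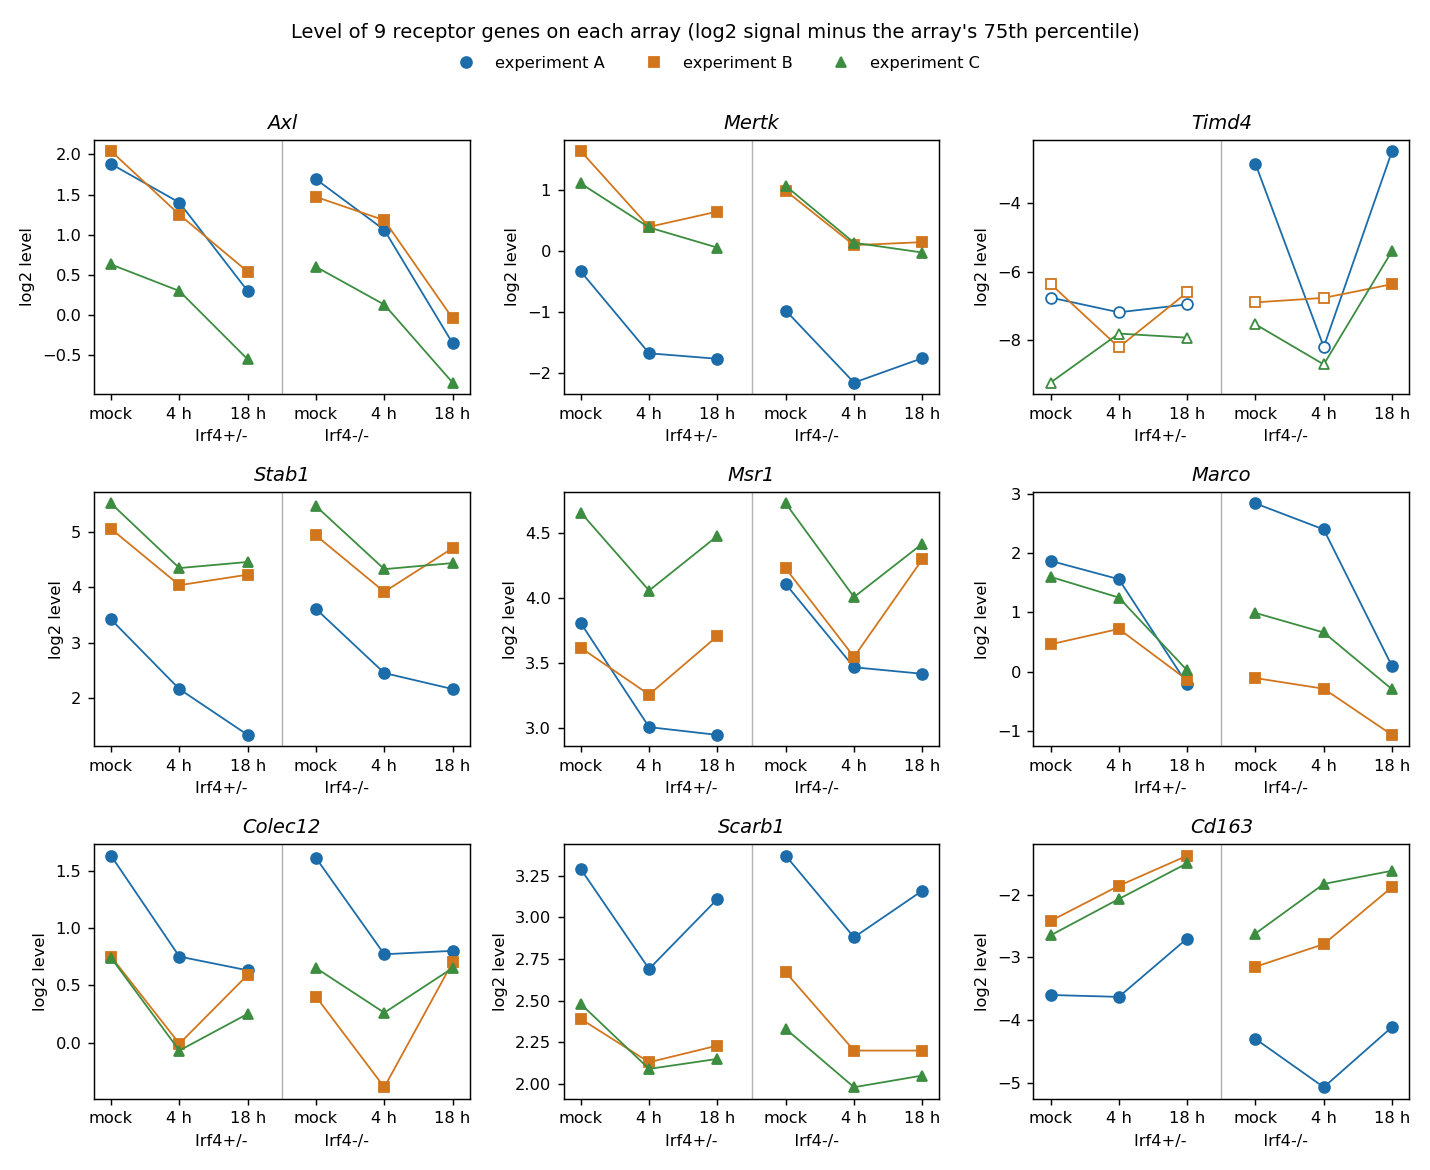
Log2 level of each gene (vertical axis; signal minus the array's 75th percentile) on the 18 arrays, by condition and genotype (horizontal axis). Points of 1 experiment within a genotype are joined by a line, and open points were not well above background. Axl steps down from mock to 4 h to 18 h in every experiment, while Mertk, Stab1 and Cd163 are lowest in experiment A in all 6 groups.

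Axl and Mertk, the bridging-protein receptors, and Stab1 were the 3 genes called lower in all 4 comparisons of IL-4 with mock once the experiment was a block. Because they shared these calls, their promoters are shown, from 250 bases before to 50 bases after the annotated start, on the strand of the gene. The windows (RefSeq, GRCm38.p6) were Axl chr7:25788684-25788983 minus strand, Mertk chr2:128698665-128698964 plus strand and Stab1 chr14:31168592-31168891 minus strand. Capitals mark every match, on either strand, to the letters GAGGAA (the core of PU.1 sites), TTCNNNGAA and TTCNNNNGAA (STAT sites), GGAANNGAAA (the ETS-IRF composite), GAAANNGAAA (the interferon response element core) and TGANTCA (AP-1).
Axl: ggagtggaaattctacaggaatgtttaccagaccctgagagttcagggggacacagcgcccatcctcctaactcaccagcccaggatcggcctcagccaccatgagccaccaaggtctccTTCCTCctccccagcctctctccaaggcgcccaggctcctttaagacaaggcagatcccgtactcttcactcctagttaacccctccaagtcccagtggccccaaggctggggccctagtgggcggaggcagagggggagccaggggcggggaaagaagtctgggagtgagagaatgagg
Mertk: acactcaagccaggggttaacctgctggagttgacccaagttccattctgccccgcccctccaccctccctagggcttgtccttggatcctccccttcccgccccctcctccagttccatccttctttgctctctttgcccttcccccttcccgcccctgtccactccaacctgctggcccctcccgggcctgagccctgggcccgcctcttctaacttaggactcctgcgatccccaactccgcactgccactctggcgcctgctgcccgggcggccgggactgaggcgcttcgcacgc
Stab1: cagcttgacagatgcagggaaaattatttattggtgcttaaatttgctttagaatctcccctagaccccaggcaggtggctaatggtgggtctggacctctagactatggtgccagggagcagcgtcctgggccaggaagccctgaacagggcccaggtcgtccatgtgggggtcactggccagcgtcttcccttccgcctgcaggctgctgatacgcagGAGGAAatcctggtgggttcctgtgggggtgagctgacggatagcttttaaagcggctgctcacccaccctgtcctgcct

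The Axl window held 1 match, the PU.1 core read on the opposite strand at -130, and the Stab1 window 1 match, the same core at -30. None of the 6 motifs was matched in the Mertk window. Of 32851 RefSeq promoters of the same length, 28.3% held the PU.1 core, 8.30% and 6.95% the STAT sites with spacers of 3 and 4, 2.72% the ETS-IRF composite, 3.44% the interferon response element core and 7.81% the AP-1 site. The sequence table held promoters for 6 of the 9 genes. Of those not shown, Marco had the PU.1 core at -146, Timd4 had the ETS-IRF composite at -72 and Cd163 had no match. A match describes letters in the window and not a site in use.

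Axl encodes the receptor tyrosine kinase that engages Gas6 on apoptotic cells. Its level in Irf4+/- cells was 1.88, 2.04 and 0.63 (log2, experiments A, B and C) in mock, 1.40, 1.25 and 0.30 after 4 h of IL-4, and 0.30, 0.54 and -0.55 after 18 h. The Irf4-/- levels were 1.69, 1.47 and 0.60 in mock, 1.06, 1.18 and 0.13 at 4 h, and -0.35, -0.04 and -0.84 at 18 h. Within each experiment the level was lower at 4 h than in mock and lower still at 18 h, in both genotypes. The 18 h groups did not overlap with mock, while the 4 h groups did, and experiment C lay below the others in every group. The share of all genes with 18 h and mock groups apart in this way was not counted, so the separation only describes these values.

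At 18 h Axl fell with the experiment as a block by 1.42 ± 0.14 in Irf4+/- cells (2.68-fold lower, adjusted p = 1.88e-05) and by 1.67 ± 0.14 in Irf4-/- cells (3.17-fold lower, adjusted p = 6.17e-06). Without the block the adjusted p was 0.117 and 0.0607, with standard errors of 0.45. Leaving out the Irf4+/- mock array of experiment C brought both under the threshold without a block (-1.87, adjusted p = 0.0427, and -1.67, adjusted p = 0.0372). Both were called in all 27 fits that had the block. At 4 h the fall was 0.54 ± 0.14 (adjusted p = 0.0183) and 0.46 ± 0.14 (adjusted p = 0.0379), and neither call was kept in every setting. The Irf4+/- call was lost without the mock array of A or B or the 4 h array of B or C (adjusted p = 0.0593 to 0.0893), and the Irf4-/- call without the mock array of A or C, any of the 3 arrays at 4 h, the 18 h array of B or the Irf4+/- 18 h array of C (adjusted p = 0.0501 to 0.154). Both were also lost with median scaling (adjusted p = 0.121 and 0.1) and with normexp background correction (adjusted p = 0.211 and 0.542). Without any 1 of the 3 experiments the calls at 4 h of Axl, Msr1, Colec12 and Scarb1 were lost (adjusted p = 0.0596 to 0.298).

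Axl was also the member called between the IL-4 times. From 4 h to 18 h it fell by 0.89 ± 0.14 in Irf4+/- cells (adjusted p = 0.00171; 0.611 without the block) and by 1.20 ± 0.14 in Irf4-/- cells (adjusted p = 3.8e-04; 0.405 without). With normexp the first of these was lost (adjusted p = 0.0803). In the fit with the block and without normexp, 11.2% of all genes were called in Irf4+/- cells and 6.23% downward, and 8.19% and 3.57% in Irf4-/- cells. Without the block the shares called in either direction were 1.1% and 0.522%. None of the other 8 genes was called between the times in either fit.

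Mertk encodes the relative of Axl that macrophages use to engulf apoptotic cells and that binds Gas6 and protein S. Its level in Irf4+/- cells was -0.33, 1.64 and 1.11 in mock, -1.67, 0.40 and 0.39 at 4 h, and -1.76, 0.65 and 0.06 at 18 h. The Irf4-/- levels were -0.97, 0.99 and 1.07 in mock, -2.15, 0.10 and 0.14 at 4 h, and -1.75, 0.15 and -0.02 at 18 h. IL-4 samples were below the mock sample of their own experiment in every case, but the groups overlapped, since all 6 arrays of experiment A lay below all 12 arrays of B and C.

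With the block Mertk fell in Irf4+/- cells by 1.10 ± 0.16 at 4 h (2.14-fold lower, adjusted p = 3.5e-04) and by 1.16 ± 0.16 at 18 h (2.23-fold, adjusted p = 2.5e-04). In Irf4-/- cells it fell by 1.00 ± 0.16 (adjusted p = 7.97e-04) and by 0.90 ± 0.16 (adjusted p = 0.00177). Unlike Axl, it was nearly level between 4 h and 18 h (-0.06 ± 0.16 and 0.10 ± 0.16, adjusted p = 0.875 and 0.792 with the block). Without the block the standard error was 0.88 and the adjusted p ran from 0.738 to 0.834. The 4 blocked calls held without any 1 array and without any 1 experiment. They were lost with normexp background correction (adjusted p = 0.0819 to 0.35), but not when the few spots far dimmer than their surroundings, 0 to 5 per array, were kept out of that correction.

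Timd4, encoding the phosphatidylserine receptor Tim-4 of resident macrophages, was near or below the detection limit. The 4 arrays on which it was well above background were all Irf4-/- and read -2.85 (mock, experiment A), -2.48, -6.36 and -5.39 (18 h, experiments A, B and C). The other 14 lay between -9.23 and -6.35. The 4 h array of that same experiment A pool read -8.19, so the 2 bright values of A stood on either side of a sample not above background. Because the gene passed the filter only through the 18 h Irf4-/- group, its contrasts are listed without a reading: against mock it was -2.12 ± 0.94 and 1.02 ± 0.94 in Irf4-/- cells, with adjusted p of 0.141 or more with the block. No change is given for Irf4+/- cells, where no array had it well above background.

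Stab1 encodes stabilin-1, which takes up acetylated lipoprotein, the matrix protein SPARC and phosphatidylserine-bearing cells. In Irf4+/- cells it read 3.42, 5.06 and 5.52 in mock, 2.16, 4.04 and 4.35 at 4 h, and 1.33, 4.23 and 4.46 at 18 h. Irf4-/- cells read 3.61, 4.94 and 5.47, then 2.45, 3.92 and 4.33, then 2.16, 4.71 and 4.44. The drop at 4 h was much the same size in each experiment, from 1.02 to 1.26, whereas at 18 h it was 2.09 and 1.44 in experiment A against 0.24 to 1.06 in B and C.

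Stab1 fell with the block by 1.15 ± 0.26 at 4 h (2.22-fold, adjusted p = 0.00694) and 1.33 ± 0.26 at 18 h (2.51-fold, adjusted p = 0.00311) in Irf4+/- cells, and by 1.11 ± 0.26 (adjusted p = 0.00918) and 0.90 ± 0.26 (adjusted p = 0.0278) in Irf4-/- cells. Without the block the adjusted p lay between 0.726 and 0.795. Its other probe was called in the same 4 comparisons, with changes of -1.06, -1.21, -0.98 and -0.92 (adjusted p = 0.00176 to 0.0102 with the block). The Irf4-/- calls were lost without the mock array of A at 4 h (adjusted p = 0.0545), and at 18 h without the mock or 18 h array of A or C (adjusted p = 0.0645 to 0.131). The 3 calls at 4 h and 18 h other than Irf4+/- 18 h were also lost with normexp (adjusted p = 0.0893 to 0.404), and all 4 without experiment C (adjusted p = 0.0634 to 0.228). The Irf4-/- calls were lost without experiment B at 4 h (adjusted p = 0.0518) and without A at 18 h (adjusted p = 0.0704).

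**Figure D2:**
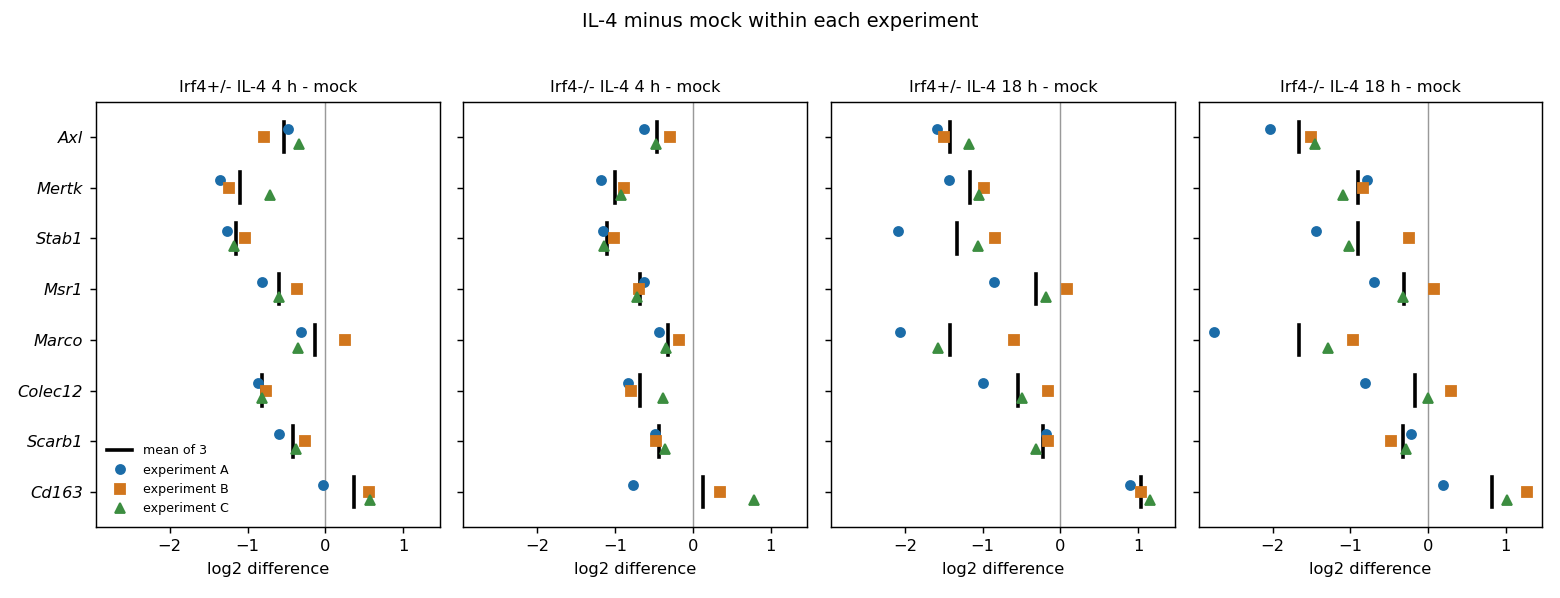
IL-4 minus mock (horizontal axis, log2) within each experiment for the 8 genes well above background on all arrays, with the mean of 3 as a bar. At 4 h the experiments lie close together for Stab1 and Msr1, and at 18 h experiment A lies furthest to the left for Stab1, Msr1, Marco and Colec12 in both genotypes.

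Msr1, Marco and Colec12 are class A scavenger receptors. Msr1, which binds acetylated lipoprotein and bacterial surfaces, read 3.81, 3.62 and 4.66 in Irf4+/- mock, 3.01, 3.26 and 4.06 at 4 h, and 2.95, 3.71 and 4.48 at 18 h. In Irf4-/- cells it read 4.11, 4.23 and 4.73, then 3.47, 3.55 and 4.01, then 3.42, 4.30 and 4.42. It was lowest at 4 h in experiments B and C, and in experiment A about as low at 18 h as at 4 h. In Irf4-/- cells it fell at 4 h with the block by 0.68 ± 0.20 (1.60-fold, adjusted p = 0.033; 0.544 without the block). The Irf4+/- change of -0.59 ± 0.20 was not called (adjusted p = 0.0616 with the block, 0.667 without). Its other probes gave -1.11 (adjusted p = 0.0342) and -0.71 (adjusted p = 0.051) in Irf4-/- cells at 4 h with the block. That call was lost without any 1 of the 3 Irf4-/- mock arrays or the 4 h array of B or C (adjusted p = 0.0544 to 0.141), with normexp (adjusted p = 0.563) and with median scaling (adjusted p = 0.0598). At 18 h the changes were -0.32 ± 0.20 and -0.31 ± 0.20 and were not called.

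Marco, a bacteria-binding receptor of the same class, moved late. It read 1.87, 0.46 and 1.60 in Irf4+/- mock, 1.56, 0.72 and 1.25 at 4 h, and -0.21, -0.14 and 0.02 at 18 h. Irf4-/- cells read 2.84, -0.11 and 0.99, then 2.40, -0.29 and 0.66, then 0.09, -1.07 and -0.30. The 18 h values lay below mock in all 3 experiments of both genotypes, and in Irf4+/- cells the 18 h group did not overlap with mock. As for Axl, the share of all genes with groups apart in this way was not counted. With the block it fell at 18 h by 1.42 ± 0.44 in Irf4+/- cells (2.67-fold, adjusted p = 0.0474) and by 1.67 ± 0.44 in Irf4-/- cells (3.17-fold, adjusted p = 0.0207). The fall was 2.07 and 2.75 in experiment A, 0.60 and 0.96 in B and 1.58 and 1.29 in C. At 4 h the changes were -0.14 ± 0.44 and -0.32 ± 0.44.

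The Irf4+/- call of Marco was kept without the Irf4+/- 18 h array of B and the Irf4-/- mock and 4 h arrays of A and B, and was lost without any 1 of the other 13 arrays (adjusted p = 0.0543 to 0.236), among which the 18 h array of A brought the change to -0.92. The Irf4-/- call was lost without the mock or 18 h array of A or the 18 h array of C (adjusted p = 0.0582 to 0.106). Both were lost with normexp (adjusted p = 0.115 and 0.0821) and without experiment B or C (adjusted p = 0.0566 to 0.319). With scan day as a fixed block in place of the experiment, Axl and Marco were called at 18 h in Irf4+/- cells (adjusted p = 0.0188 and 0.0142) and in Irf4-/- cells (adjusted p = 0.00843 and 0.00597).

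Colec12, a collectin with a scavenger domain that binds oxidised lipoprotein and microbial sugars, read 1.63, 0.75 and 0.74 in Irf4+/- mock, 0.75, -0.01 and -0.07 at 4 h, and 0.63, 0.59 and 0.25 at 18 h. Irf4-/- cells read 1.61, 0.40 and 0.65, then 0.77, -0.39 and 0.26, then 0.80, 0.70 and 0.65. The 4 h sample was below the mock of its experiment in 6 of 6 pairs, and by 18 h the Irf4-/- samples of B and C were no longer below it. With the block Colec12 fell at 4 h by 0.82 ± 0.22 in Irf4+/- cells (1.76-fold, adjusted p = 0.0196; 0.319 without) and by 0.68 ± 0.22 in Irf4-/- cells (1.60-fold, adjusted p = 0.0484; 0.467 without). Its other probe gave -0.89 and -1.01 and was not called (adjusted p = 0.25 and 0.176 with the block).

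The Irf4+/- call of Colec12 was lost without the mock array of A or B or the 4 h array of B or C (adjusted p = 0.0516 to 0.0859) and with normexp (adjusted p = 0.113). The Irf4-/- call was kept only without the 18 h array of A or B of either genotype or the Irf4-/- mock array of B, and was lost without any 1 of the other 13 arrays (adjusted p = 0.0524 to 0.204), with normexp (adjusted p = 0.259) and with median scaling (adjusted p = 0.0626). At 18 h the changes were -0.55 ± 0.22 and -0.17 ± 0.22 and were not called.

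Scarb1, the class B receptor that takes up cholesteryl ester from high-density lipoprotein and also binds phosphatidylserine, changed least among the genes called. It read 3.29, 2.39 and 2.48 in Irf4+/- mock, 2.69, 2.13 and 2.09 at 4 h, and 3.11, 2.23 and 2.15 at 18 h. In Irf4-/- cells it read 3.37, 2.67 and 2.33, then 2.88, 2.20 and 1.98, then 3.16, 2.20 and 2.05. Each IL-4 sample was below the mock sample of its experiment, in 12 of 12 pairs, with overlapping groups. With the block it fell at 4 h by 0.41 ± 0.11 (1.33-fold, adjusted p = 0.021; 0.834 without) in Irf4+/- and by 0.44 ± 0.11 (1.36-fold, adjusted p = 0.016; 0.74 without) in Irf4-/- cells. At 18 h the changes of -0.22 ± 0.11 and -0.32 ± 0.11 were not called (adjusted p = 0.241 and 0.0628). The Irf4+/- call was lost without the mock array of A or C or the 4 h array of A or B (adjusted p = 0.0507 to 0.121), and with median scaling (adjusted p = 0.155). The Irf4-/- call was lost without the mock array of A or B or the 4 h array of A or C (adjusted p = 0.0545 to 0.0682), and both were lost with normexp (adjusted p = 0.196 and 0.545).

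Cd163, the scavenger receptor for haemoglobin bound to haptoglobin, was the gene with the opposite sign. It read -3.60, -2.42 and -2.65 in Irf4+/- mock, -3.63, -1.86 and -2.07 at 4 h, and -2.70, -1.38 and -1.50 at 18 h. Irf4-/- cells read -4.30, -3.15 and -2.62, then -5.07, -2.79 and -1.83, then -4.11, -1.88 and -1.62. The 18 h sample was above the mock sample of its experiment in 6 of 6 pairs. The change at 18 h was 1.03 ± 0.34 in Irf4+/- and 0.82 ± 0.34 in Irf4-/- cells and was not called (adjusted p = 0.0559 and 0.106 with the block, 0.864 and 0.776 without), and at 4 h it was 0.37 ± 0.34 and 0.13 ± 0.34.

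**Figure D3:**
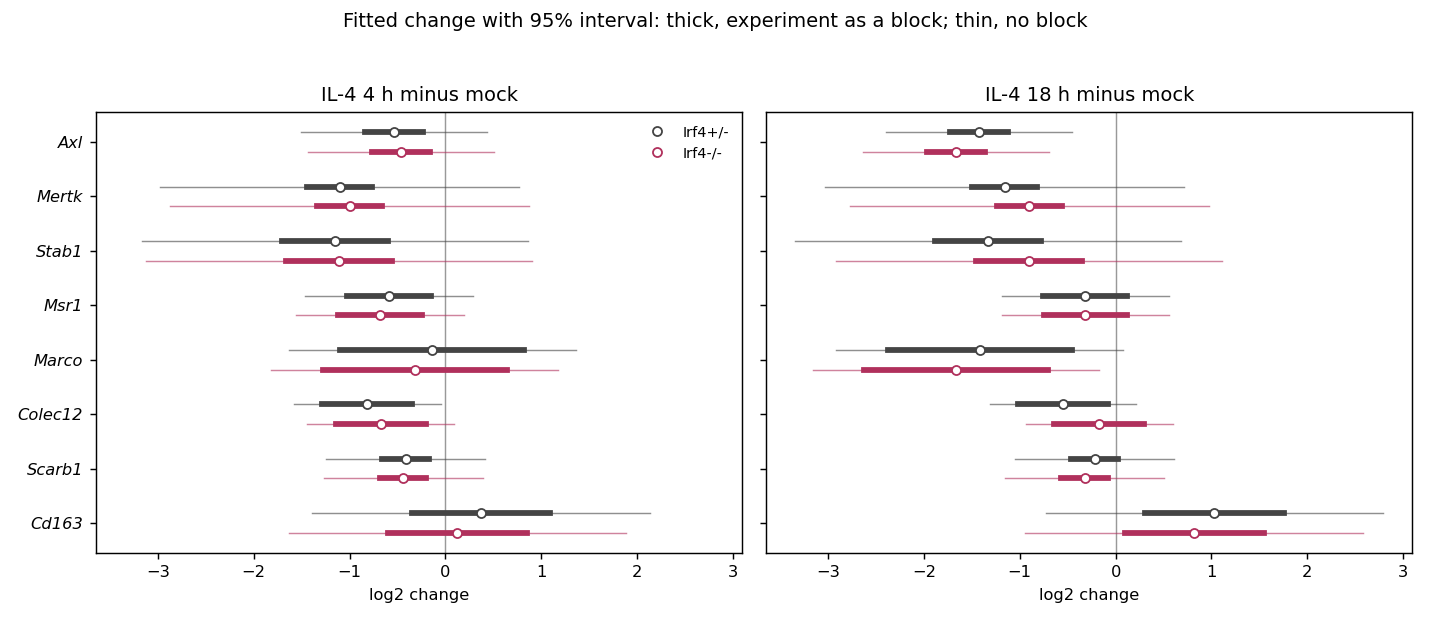
Log2 change after IL-4 (horizontal axis) for 8 genes in Irf4+/- and Irf4-/- cells; thick lines are 95% intervals with the experiment as a block and thin lines those without it. The points of the genotypes lie furthest apart for Stab1 and Colec12 at 18 h, by 0.43 and 0.38. The thin lines of Mertk, Stab1 and Cd163 are the widest.

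Among the 8 genes well above background throughout, 6 were lower than mock in all 3 experiments at 4 h and 6 at 18 h in Irf4+/- cells, and 7 and 5 in Irf4-/- cells. Over all genes tested the share lower in all 3 experiments was 31.2%, 25.9%, 26.5% and 20.6% in the same order. Cd163 was the 1 gene of the 8 higher than its mock in all 3 experiments, at 18 h in both genotypes. Over all genes tested, 30.7% in Irf4+/- and 41.6% in Irf4-/- cells were higher in all 3 experiments at 18 h.

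The comparisons of genotypes addressed whether these receptors or their IL-4 response differ without Irf4. None of the 9 genes was called in mock cells, at 4 h or at 18 h, with or without the block. The shares over all genes were 0%, 0% and 0.0255% without the block and 0.0318%, 0.0255% and 0.401% with it. The genotypes' difference in response, Irf4-/- minus Irf4+/-, was called for none of the 9 and for 0% of all genes at 4 h and 0% at 18 h, in both fits. For Axl that difference was 0.07 at 4 h (95% interval with the block -0.36 to 0.50) and -0.24 at 18 h (-0.67 to 0.19). For Mertk it was 0.10 (-0.38 to 0.58) and 0.26 (-0.23 to 0.74), and for Stab1 0.04 (-0.74 to 0.83) and 0.43 (-0.36 to 1.21). Differences within these limits could not be resolved with 3 arrays a group. The widest interval among the other 5 genes well above background was that of Marco (-1.60 to 1.11 at 18 h).

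At the level of the genotypes themselves, the largest separation relative to its spread was Axl at 18 h, at -0.51 in Irf4-/- minus Irf4+/- (95% interval with the block -0.81 to -0.20, adjusted p = 0.135). Mertk was -0.45 in mock (-0.79 to -0.11, adjusted p = 0.296) and -0.34 at 4 h (adjusted p = 0.71). Msr1 was 0.33 in mock and 0.33 at 18 h, and Scarb1 lay between -0.03 and 0.07 in the 3 conditions. Genotype and slide cannot be told apart in experiments A and B, where each genotype had a slide of its own, and in A a scan day as well. In experiment C, the Irf4+/- 18 h array and both Irf4-/- IL-4 arrays were on another slide than the mock array of their genotype. Their differences from mock in C were therefore also differences between slides.

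The experiments differed from each other more than the conditions did for several of these genes. In all 6 groups experiment A was below both B and C for Mertk (-2.27 to -1.70 against the mean of B and C), Stab1 (-3.01 to -1.60) and Cd163 (-2.75 to -1.07), and above both for Scarb1 (0.58 to 1.03) and Colec12 (0.12 to 1.08). Marco was above in 5 of 6 groups (1.11 on average) and Msr1 below in 5 of 6 (-0.63). Axl instead was lowest in experiment C, with a mean over the 6 groups of 0.05 against 1.00 in A and 1.07 in B. Markers of other cells moved with experiment A in part: the summed level of neutrophil markers (6 of the 8 on the array were well above background on all 18) was 5.72 to 5.79 in the Irf4-/- arrays of A against 3.95 to 4.30 in those of B and C, and 4.35 to 4.79 in the Irf4+/- arrays of A against 3.77 to 4.49. The summed level of resident macrophage markers (3 of 6) was 5.00 to 5.85 in the Irf4-/- arrays of A against 6.68 to 7.58 in B and C, and 6.46 to 7.06 in the Irf4+/- arrays of A against 6.58 to 7.59. Their part in the level of the receptors was not tested.

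The summed level of markers of other cells also moved with IL-4, and a sum follows the brightest genes of its list more than the others. The summed level of resident macrophage markers (3 of 6 well above background on all arrays) moved the same way as most of the receptors: it was 5.85 to 7.59 in mock, 5.32 to 7.30 at 4 h and 5.00 to 6.78 at 18 h. It was below its mock array in 6 of 6 pairs at 4 h (-0.53 to -0.24) and in 6 of 6 at 18 h (-0.95 to -0.60). That of B cell markers (4 of 6) was above mock in 6 of 6 pairs at 4 h (0.11 to 0.39) and below it in 6 of 6 at 18 h (-0.66 to -0.28). The median change of the 5 tested B cell markers did not follow that sum. It was -0.06 at 4 h and -0.20 at 18 h in Irf4+/- cells, and 0.25 and 0.36 in Irf4-/- cells. The summed level of dendritic cell markers, of which 5 of 7 were well above background on all arrays and Siglech on none, was 0.08 to 0.94 in mock, 2.72 to 5.01 at 4 h and 1.97 to 5.22 at 18 h. Batf3 among them changed by 3.60 ± 0.59 without the block in Irf4+/- cells at 18 h. Without the block, 1 of the 6 tested dendritic cell markers was called up in each comparison with mock. The median change of that list was -0.06 at 4 h and 0.14 at 18 h in Irf4+/- cells, with 3 of 6 lower at both times. In Irf4-/- cells the median was 0.42 and 0.55, with 1 of 6 lower. The summed level of osteoclast markers (6 of 7) was 1.14 to 2.79, 1.23 to 2.35 and 2.87 to 4.45, with Atp6v0d2 up by 3.12 ± 0.29 in Irf4+/- cells at 18 h. That of endothelial markers (5 of 6) was 3.40 to 4.33, 3.11 to 4.36 and 4.61 to 5.48, with Vwf up by 1.52 ± 0.26 in the same comparison. There 3 of the 5 tested endothelial markers were lower than mock, with a list median of -0.15. With the block 1 of them was called up and 2 down. In Irf4-/- cells at 18 h, 2 of the 5 were lower and the median was 0.58. The 5 other lists (neutrophil, T and NK cell, mast cell and basophil, erythroid and fibroblast markers) changed by -0.78 to 1.71 and did not move 1 way in all 6 pairs at either time. The part of these changes in the receptor results was not tested. Summed macrophage markers lay between 8.92 and 10.03 in all conditions, although Cd14 among them fell. The Irf4-/- arrays of experiment A held the lowest values, 8.92 to 9.09, against 9.63 to 10.03 in the Irf4-/- arrays of B and C.

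Across the 18 arrays, which share experiments and conditions, the level of Mertk followed that of Stab1 (Pearson r = 0.93, and 0.78 after the experiment means were removed). Marco followed Axl more closely once the experiment means were removed (r = 0.52, then 0.83), and Stab1 followed Msr1 (0.81 and 0.81) and Colec12 (-0.20, then 0.82). Axl followed Mertk (0.11, then 0.72) and Stab1 (-0.01, then 0.60) only after that removal. Cd163 ran against Marco in both ways (-0.64 and -0.54). These values describe arrays that share treatment and experiment.

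The tested genes most like each receptor over the 18 arrays, out of 15646 with a value on every array, were Nlgn2, Plxnb3 and Rubcnl for Mertk (r = 0.974, 0.973 and 0.963), and Tmem176b, Tmem176a and Rnpep for Axl (0.937, 0.927 and 0.921). For Stab1 they were Jade2, Ampd3 and P4ha2 (0.962 to 0.953), for Scarb1 Nptxr, Dbf4 and Kif15 (0.970 to 0.952), and for Cd163 Trnp1, Aplp2 and Epb41l1 (0.945 to 0.940). Palld and Tmem171 were among the 3 for Msr1 (0.926 and 0.920). For Marco they were Gca, Adgrg1 and Mgst2 (0.915 to 0.888), and for Colec12 Aldh9a1, Tmtc2 and Tmem50b (0.896 to 0.877). Timd4 was most like Tsg101, Decr1 and Ube2e3 (0.908 to 0.861), a likeness that rests on an Irf4-/- group and 2 bright arrays. All these r values were taken with the experiment means left in, so they include differences between experiments as well as between conditions.

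Other scavenger receptors were read from a list of 18 genes, of which 14 were tested. In Irf4+/- cells 1 rose and 0 fell at 4 h, and 2 rose and 2 fell at 18 h, and the counts were the same in Irf4-/- cells (with the block 2 and 1, 3 and 3 in Irf4+/-, and 3 and 2, 4 and 3 in Irf4-/-). Mrc1, the mannose receptor, rose in all 4 comparisons, by 1.50 ± 0.36 (SE without the block, as for all genes of these lists) at 4 h and 1.59 ± 0.36 at 18 h in Irf4+/- cells and by 1.43 and 1.87 in Irf4-/- cells (adjusted p = 0.00775 to 0.0376). Clec7a, the beta-glucan receptor dectin-1, rose at 18 h by 2.81 ± 0.58 and 3.00 ± 0.58. Cxcl16, a membrane chemokine that also binds oxidised lipoprotein, fell at 18 h by 2.13 ± 0.42 and 2.37 ± 0.42, and Lrp1, a large endocytic receptor also used for apoptotic cells, by 1.20 ± 0.25 in both genotypes. The median change of the list was 0.05, 0.20, 0.12 and 0.31, in the order Irf4+/- 4 h, Irf4+/- 18 h, Irf4-/- 4 h and Irf4-/- 18 h.

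Of 23 bridging molecules and other apoptotic-cell receptors, 21 were tested. In that order of comparisons 1 rose and 1 fell, 1 rose and 3 fell, 1 rose and 1 fell, and 1 rose and 2 fell; with the block the counts were 2 and 4, 4 and 8, 2 and 2, and 4 and 4. Itgb3, a subunit of the vitronectin receptor that binds the bridging protein MFG-E8, rose by 1.83 ± 0.42 and 2.98 ± 0.42 in Irf4+/- and by 1.76 and 3.17 in Irf4-/- cells. Its partner subunit gene Itgav fell at 18 h, by 0.77 ± 0.16 and 0.69 ± 0.16. Cd14, which binds lipopolysaccharide and apoptotic cells, fell by 1.64, 2.48, 1.84 and 2.35, each ± 0.24. Havcr2, encoding Tim-3, fell at 18 h in Irf4+/- cells by 1.05 ± 0.27 (adjusted p = 0.0438; -0.65 and 0.305 in Irf4-/-). Gas6, the ligand of Axl and Mertk and chosen here after its values were seen, was called with the block in Irf4+/- cells at 18 h (-0.94 ± 0.22, adjusted p = 0.00945; 0.889 without). The median change of the list was -0.15, -0.48, -0.16 and -0.32.

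All 21 genes of the engulfment machinery and of don't-eat-me signals were tested, and 1 call was made without the block. Elmo2, part of the module that activates Rac during engulfment, rose at 18 h in Irf4+/- cells by 1.00 ± 0.23 (adjusted p = 0.0222), and its value in Irf4-/- cells was 0.85 ± 0.23 (adjusted p = 0.06). With the block 1 rose and 1 fell, 3 and 2, 1 and 2, and 4 and 1 in the same order. Abca1, the cholesterol exporter that acts after engulfment, was chosen after its values were seen; it fell with the block by 1.69, 1.53, 1.87 and 1.54, each ± 0.28 (adjusted p = 5.9e-04 to 0.00255), and was not called without it (0.122 to 0.254). The median change was 0.04, 0.11, 0.03 and 0.11.

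Of 23 upstream and downstream regulators, 21 were tested, of which 4 rose and 2 fell, 4 and 0, 4 and 3, and 3 and 0 (with the block 4 and 4, 4 and 2, 4 and 4, and 5 and 1). Socs1, a feedback inhibitor of IL-4 signalling, rose by 5.93, 4.38, 5.65 and 4.27, each ± 0.68. Klf4, a STAT6-induced transcription factor, rose by 2.10, 2.41, 2.29 and 2.45 (± 0.38). Pparg, a lipid-sensing nuclear receptor, rose at 18 h in Irf4+/- cells by 1.26 ± 0.27 (adjusted p = 0.0142; 1.01 and 0.0544 in Irf4-/-). The gene of the liver X receptor Nr1h3, whose targets include Mertk and Abca1, fell at 4 h by 1.23 ± 0.23 in Irf4+/- and 1.19 ± 0.23 in Irf4-/- cells (adjusted p = 0.00612 and 0.00841). Hmox1, encoding the enzyme that degrades haem taken up through Cd163, fell at 4 h by 1.29 ± 0.24 and 0.93 ± 0.24.

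**Figure D4:**
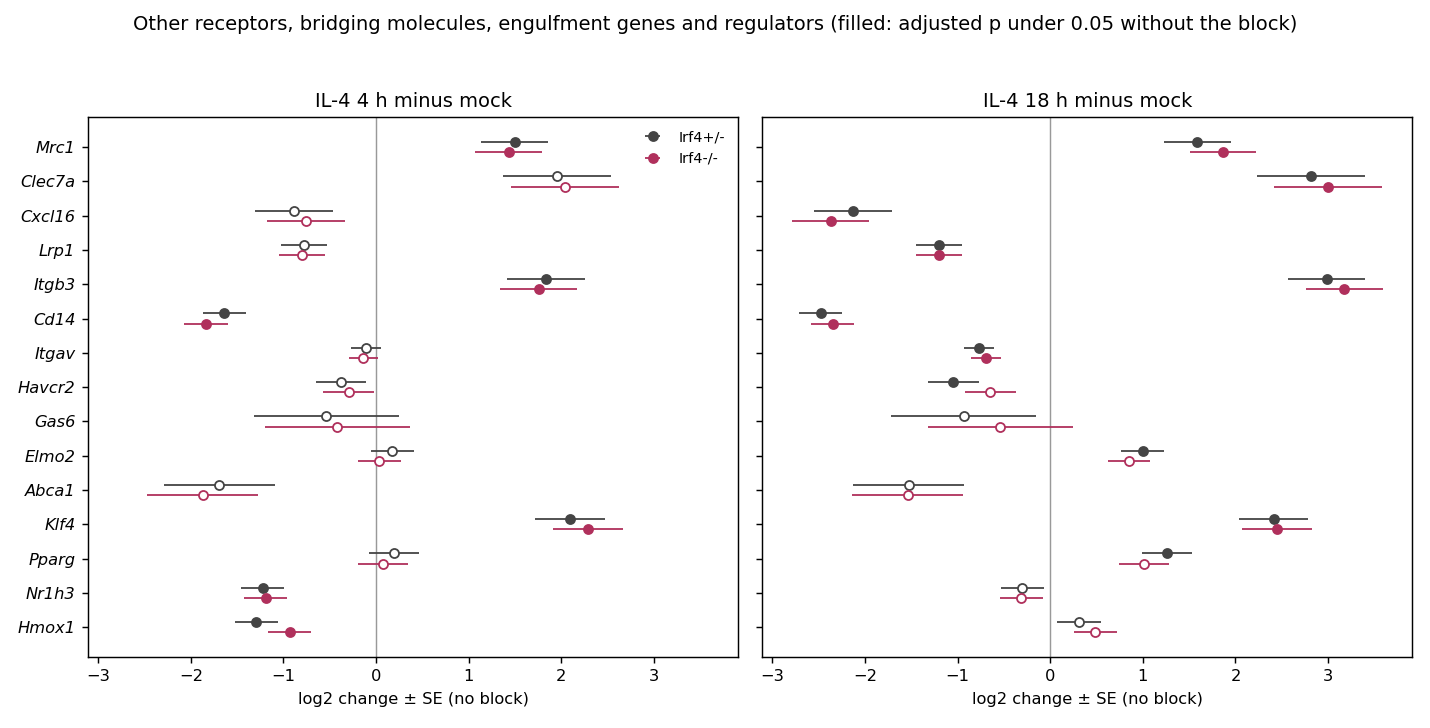
Log2 change ± SE without the block (horizontal axis) of 15 genes of the 4 pathway lists after 4 h and 18 h of IL-4 in both genotypes; filled points passed an adjusted p under 0.05. Mrc1, Itgb3 and Klf4 lie to the right of 0 and Cd14 to the left in all 4 comparisons, and Nr1h3 and Hmox1 lie below 0 at 4 h with filled points.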

How the data were processed

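Titles gave each of the 18 arrays its group (6 groups, 3 arrays each) and its experiment letter. The authors extracted spots with Agilent Feature Extraction 9.5.1, per the file headers and the submitters' processing notes, and the deposited array files give each spot's background-subtracted intensity, mean and local background intensity and flags. A deposited table holds log2 values made in a way the sources used here do not describe; its columns matched the level minus that of the Irf4+/- mock array of the same letter (lowest correlation 0.992 over 15646 genes; column medians -0.18 to 0.207).

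Control spots (43379 spots per array were not controls) and outlier flags (63 to 182 per array) were not used, repeated spots of a probe were averaged, and levels were log2 intensity with the array's own 75th percentile removed. The filter on dim probes asked for signal well above background on all 3 arrays of some group, and each gene was represented by its brightest kept probe. The 41174 probes were named by RefSeq accession (22944), current symbol (6664), synonym (3108) or the file's own name (2335), and 6123 had none. The number of arrays limits the precision.

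limma 3.58.1 (R 4.3.3, statmod 1.5.0) was fitted over all 18 arrays with 1 mean per group, two-sided, with Benjamini-Hochberg adjustment over all genes tested and a threshold of 0.05. The fit without a block was tested on simulated data for 1 contrast. Those data held no difference between experiments, so they do not check the fits with the block. Same-letter samples deviated together in 45 of 45 pairs (correlation of deviations from the group means 0.43 to 0.876; other letters -0.656 to 0.262), and the series design gives littermates per experiment, so fits with the experiment as a block stand beside those without. Python 3.11.15, numpy 2.4.6, pandas 2.3.3, scipy 1.17.1 and matplotlib 3.10.9 were used.

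The members, the lists of other genes and the alternatives were chosen with earlier results of these data known. Named were all 9 members in every contrast, up to 4 called genes with the lowest adjusted p per pathway list and IL-4 comparison, Irf4, Arg1 and Retnla as checks, and the 3 genes most like each member; some genes under this rule are not reported here. Alternatives covered scaling, background, the filter on dim probes, probe choice, outlier flags, the groups in the fit, the intensity trend, blocks by experiment, pool of cells, slide and scan day, and leaving out arrays or experiments.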

Additional observations from a re-analysis of the deposited data

How the results depend on the processing

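Counts of the 9 genes called are given in the order Irf4+/- 4 h, Irf4+/- 18 h, Irf4-/- 4 h, Irf4-/- 18 h against mock, then 18 h against 4 h in Irf4+/- and in Irf4-/-. In the main fit, which had no block, they are 0 throughout. The replicate block, which is the pairing by experiment, gave 5, 4, 6, 4, 1 and 1. The share of all genes called is given above for the main fit and the replicate block only. Counts in the other settings are not set against all genes, so they cannot be read as a trait of these 9. A random block for each pool of cells (genotype and experiment) gave 6, 5, 6, 5, 2 and 3, slide as a random block 6, 5, 5, 3, 2 and 3, and slide as a fixed block 6, 4, 3, 4, 1 and 2. Scan day gave 0, 1, 0, 2, 0 and 0 as a random block and 0, 2, 0, 2, 1 and 1 as a fixed block. Median scaling gave 1 call and the intensity trend 1 call, each Axl in Irf4-/- cells at 18 h. Together with the replicate block, median scaling gave 3, 4, 3, 4, 1 and 1, quantile normalization 6, 4, 6, 5, 1 and 1, normexp 0, 2, 0, 1, 0 and 1, normexp without far-dim spots 5, 5, 5, 5, 1 and 1, and slide as a random block 6, 5, 6, 5, 2 and 3. The block gave 2, 4, 2, 4, 1 and 1 without experiment A, 2, 3, 1, 3, 1 and 1 without B, and 1, 2, 1, 2, 1 and 1 without C. Leaving out 1 array in turn gave 0 to 6, 0 to 5, 0 to 6, 0 to 4, 0 to 2 and 0 to 3 calls, fits with the block included. None of the 21 changes called with the block reversed in any setting. The block changed no call between genotypes or of the difference of responses. The other settings, among them no filter and a stricter filter on dim probes, the mean of a gene's probes, each probe on its own, quantile normalization, normexp and only the groups compared, gave 0 calls without a block. Timd4 was the only member not well above background on every array. Cd163 came near that limit on the Irf4-/- 4 h array of A, at -5.07, where the lowest signal well above background was -6.09. Settings chosen after seeing the data were the fixed slide and scan day blocks and every combination with the replicate block.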
